A study of Vitis riparia with 12 samples.

Results

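The 153 genes described here are the gene models of Vitis riparia root and shoot libraries whose level differed in root between vines under water deficit (WD) and watered control vines (C), while the mean level in shoot moved little. Levels are CPM, the reads on a gene scaled to a common total of reads on genes in each library. Genes were selected on 3 limits. The mean CPM of the C libraries had to be 1 or more in both organs, the 3 WD root libraries had to lie entirely above or entirely below the 3 C root libraries with a ratio of mean CPM of 1.5 or more, and the log2 ratio of mean CPM between WD and C shoot had to stay within 0.32 of 0 in both directions. Of 29966 gene models, 16464 met the limit on the C level, and 125 root rises and 28 root falls met all limits. With CPM on TMM library sizes the same limits gave 112 rises and 52 falls, and with DESeq2 size factors 102 and 59, so the balance of the directions depends on the scaling.

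The organism was V. riparia, a North American grape species used as a parent of rootstocks. Potted vines received either no water (WD) or 2 L of tap water per day (C) for 14 d, and each replicate combined 3 vines. The 12 libraries form 4 groups of 3, with WD and C vines sampled for root and for shoot. RNA came from shoot tips and from root tips, although a label field of the root samples calls the tissue whole root. The reads of V. riparia were aligned to the PN40024 assembly of Vitis vinifera, so genes that differ between the species can be undercounted.

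In a drying soil the root is the first organ to meet the deficit. Abscisic acid (ABA) is made from carotenoids, its level is set by synthesis through 9-cis-epoxycarotenoid dioxygenase (NCED) and by breakdown through ABA 8′-hydroxylases, and it closes stomata and changes growth. Roots also adjust the ions, sugars and other solutes that are taken up, stored in vacuoles or loaded into the xylem, a task of channels and transporters of the plasma membrane and the tonoplast.

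Reads on genes ranged from 14376065 to 22800079 in the 6 root libraries and from 17429395 to 27769527 in the 6 shoot libraries, so that 1 CPM stood for 14.4 to 27.8 reads. The summed CPM of 26 genes listed with photosynthesis was 145 to 401 in root libraries and 8262 to 18537 in shoot libraries, and the annotation used here held no gene for the lists of root tissue and of xylem and phloem. The library WD root 3 stood apart from the other root libraries, with a median correlation of 0.918 over genes on log2 CPM against 0.959 to 0.974 for the others. Shoot libraries were less alike, with 0.806 for WD shoot 3, 0.878 for WD shoot 2 and 0.901 to 0.921 for the others, and the summed CPM of 8 histone genes was 27.8 in WD shoot 2 and 17.8 in WD shoot 3 against 236 in WD shoot 1 and 212 to 422 in C shoot. These correlations were taken with the other libraries of the same organ, WD and C together, so they do not measure the spread within a group. The C shoot libraries also differed, with the photosynthesis genes at 14936, 8262 and 12236 CPM in C shoot 1 to 3. The flat shoot means therefore rest on libraries that differ within both the WD and the C group. With edgeR's quasi-likelihood test and Benjamini-Hochberg adjustment, 0 of 19545 genes (0%) had an adjusted p under 0.05 for WD against C in root, 1771 (9.06%) had an unadjusted p under 0.05, and DESeq2 called 428 genes. The same edgeR test called 5301 of 19569 genes (27.1%) in shoot. The root changes below are therefore differences between libraries that do not overlap and not calls of a test across all genes, and they carry no p because the same libraries chose the genes.

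Genes that met the root limits were few, and most of them also differed in shoot. The root limits were met upward by 694 of the 16464 genes (4.22%) and downward by 402 (2.44%), and the shoot limit was met by 5695 (34.6%). Of the 694 root rises, 439 were past the shoot limit in the same direction, 130 were past it the opposite way, and 125 (18%) stayed under the shoot limit. Of the 402 root falls, 351 were also lower in WD shoot, 23 were higher, and 28 (6.97%) stayed under it. These counts are fixed by the limits and are given as a description.

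**Figure D1:**
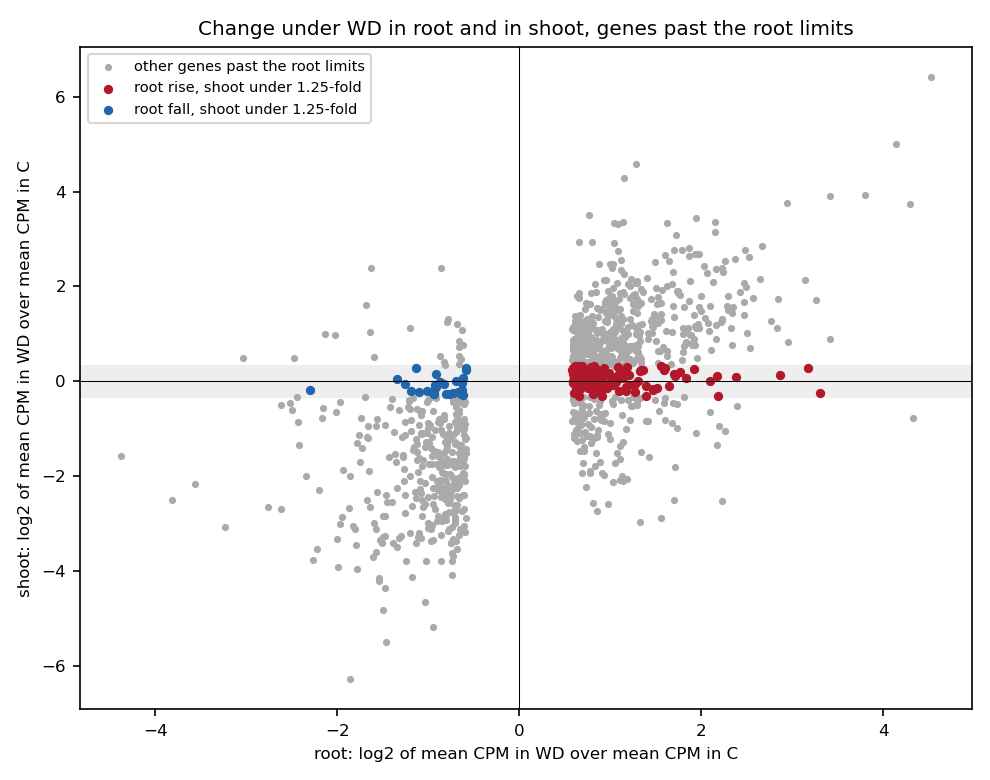
Log2 of mean CPM in WD over C in root (horizontal axis) against the same ratio in shoot (vertical axis) for the genes past the root limits. The 125 rises (red) and 28 falls (blue) lie in the grey band of the shoot limit, and grey points are the other genes past the root limits, most of which lie above the band on the right and below it on the left.

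The root ratio of the 125 rises ranged from 1.5 to 9.92 with a median of 1.80. It was 2 or more in 43 genes and 3 or more in 15. For the 28 falls the C mean exceeded the WD mean by 1.5 to 4.92-fold with a median of 1.80, and by 2-fold or more in 7 genes. The rise closest to the root limit was VIT_17s0053g00430 at 1.501-fold, and the nearest gene left out was VIT_13s0019g05090 at 1.499-fold. On the shoot limit, VIT_09s0002g05200 at 1.249-fold was the last rise inside and VIT_01s0011g05670 at 1.251-fold was the first outside. Among falls, VIT_04s0008g02460 was inside the root limit at 1.5001-fold and VIT_07s0104g00090 was outside at 1.499-fold. The shoot ratio of VIT_18s0001g05570 was 1.214-fold down, inside its limit, and that of VIT_10s0003g00990 was 1.253-fold down, outside it. On the C level, the limit of 1 CPM kept the rise VIT_12s0121g00280 at 1.02 CPM in C root and the fall VIT_02s0025g04080 at 1.29 CPM in C shoot. It left out VIT_06s0004g01510, which was 9.49-fold higher in WD root from a C root mean of 0.998 CPM, and VIT_19s0014g01180, a fall with 0.901 CPM in C shoot.

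A function could be named for 32 of the 125 rises and 9 of the 28 falls. Names came from the study's tables of genes it called differentially expressed, of which only a part was at hand, so an unnamed gene is not a gene of no known function. Functional groups below are counts of named genes in those tables, and a group's count says nothing about the genes left unnamed.

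Among 210 listed transport genes with a C level of 1 CPM or more in both organs, 41 met the root limits upward, and 8 of these (19.5%) were members. The 18% of all root rises counts unnamed genes too, which no list can hold. Among root rises with a named function, transport genes were 8 of 32 members (25%) and 33 of 309 past the shoot limit (10.7%). This difference was not tested. Of 21 that met the root limits downward, 0 were members. The 8 genes move sulfate, chloride, sugar, inositol, potassium, small peptides or nitrate and larger organic molecules, or open under membrane tension.

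SULTR3;5 (VIT_11s0016g04160, chromosome 11, 3394735 to 3399120), a sulfate transporter of the plasma membrane family that acts with others in moving sulfate from root to shoot in Arabidopsis, was at 46.7, 117 and 624 CPM in WD root 1 to 3 and at 38.0, 34.7 and 14.2 CPM in C root. In shoot it was at 20.0, 6.34 and 27.5 CPM under WD and at 8.90, 20.9 and 14.5 CPM in C. The root groups did not overlap, but WD root 1 was close to the C range and WD root 3 was far above all others, so that the ratio of 9.07 became 2.82 without WD root 3. The chloride channel CLCB (VIT_14s0068g02190, chromosome 14, 25779519 to 25783996), of a family that exchanges anions across vacuolar and other inner membranes, was at 146, 122.99 and 167 CPM in WD root and 47.8, 23.5 and 24.9 CPM in C root. Here the 3 WD libraries were alike and all above the highest C library, and the ratio of 4.53 stayed between 3.998 and 6.001 when any single root library was left out. Its shoot libraries overlapped, at 45.03, 54.2 and 119.7 CPM under WD and 50.3, 76.6 and 75.1 CPM in C.

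The hexose transporter STP13 (VIT_05s0020g03140, chromosome 5, 4868740 to 4873368), which takes up monosaccharides from the cell wall space, was at 315, 157 and 235 CPM in WD root and 91.7, 118 and 70.2 CPM in C root, a ratio of 2.53. It was a gene of the root, with 6.45 to 22.3 CPM over the 6 shoot libraries. The inositol transporter INT2 (VIT_10s0003g03930, chromosome 10, 6694431 to 6698838) had the opposite balance. It was at 13.7, 32.4 and 72.2 CPM in WD root and 13.5, 13.3 and 6.42 CPM in C root, while shoot libraries held 209 to 281 CPM in a narrow range under both treatments. WD root 1 exceeded the highest C root library by little, and without WD root 3 the ratio of 3.57 was 2.09.

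An ABC transporter of the G family (VIT_01s0011g02730) was at 13.3, 31.5 and 62.8 CPM in WD root against 8.90, 9.70 and 12.96 CPM in C root, so that WD root 1 and C root 3 nearly touched, and the ratio of 3.41 was 2.13 without WD root 3. The outward potassium channel SKOR (VIT_14s0006g00100), which releases potassium into the xylem in Arabidopsis roots, was at 44.5, 29.9 and 45.4 CPM in WD root and 19.9, 23.5 and 10.8 CPM in C root, a ratio of 2.21. Its shoot libraries lay between 9.07 and 19.5 CPM and overlapped. The remaining transport genes, named here to complete the list of 8, were the mechanosensitive channel MSL8 (VIT_03s0038g02980) with a root ratio of 2.28 and a peptide or nitrate transporter of the NPF family (VIT_08s0007g01320) with a root ratio of 2.52 at under 7 CPM in every root library.

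**Figure D2:**
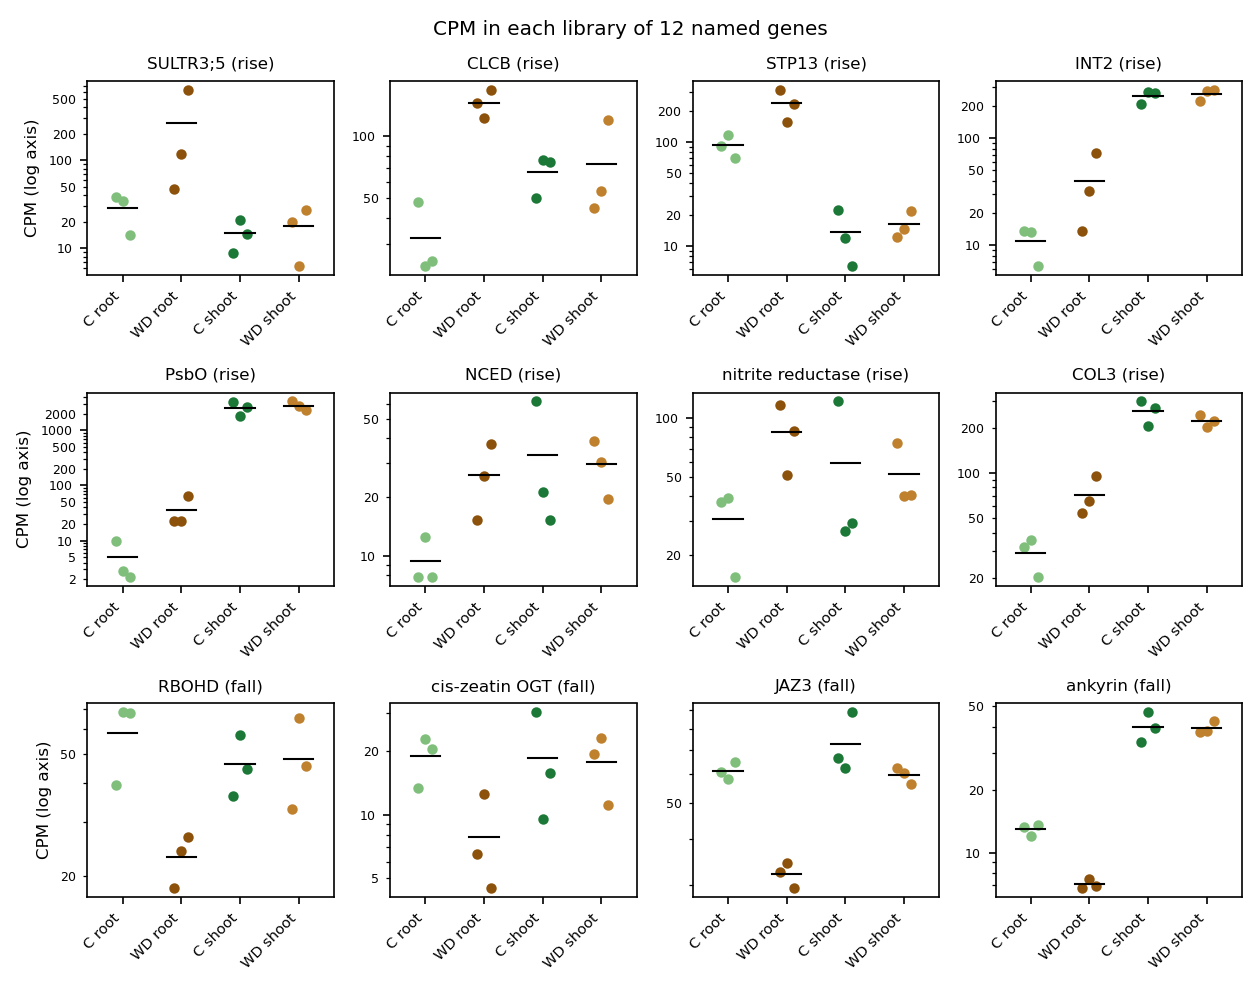
CPM on a log axis in each of the 12 libraries for 8 rises and 4 falls, with 1 panel per gene, points for libraries and a bar for the mean of 3. C and WD root points do not overlap in any panel. C and WD shoot points share a range, which for JAZ3 is only the level of the highest WD and the lowest C point.

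Of 26 listed ABA genes at the C level limit, 12 met the root limits upward, and 11 of these were past the shoot limit upward. The 18% of all root rises under the shoot limit counts unnamed genes too, while this list holds named ones only. In the ABA list 1 gene (8.33%) was under that limit. That gene was NCED (VIT_10s0003g03750, chromosome 10, 6374431 to 6376728) at 15.2, 25.6 and 37.4 CPM in WD root and 7.89, 12.51 and 7.87 CPM in C root, a ratio of 2.77. In shoot it was at 38.5, 30.2 and 19.6 CPM under WD and 61.8, 21.2 and 15.3 CPM in C. The C shoot 1 library was the highest of the 6, and without it the shoot ratio of 0.898 became 1.61, so the gene would then exceed the shoot limit. A putative ABA 8′-hydroxylase of the CYP707A family (VIT_06s0004g05050, chromosome 6, 5973295 to 5977333), listed by the annotation as an ent-kaurenoic acid oxidase and so not counted with the ABA genes, had the largest root ratio of all members. It was at 11.0, 12.1 and 12.1 CPM in WD root and 0.636, 1.59 and 1.32 CPM in C root, a ratio of 9.92 with little spread among WD libraries. In shoot C shoot 1 was again the highest, at 10.005 CPM against 1.37 and 4.86 CPM in the other C libraries and 3.67 to 5.08 CPM under WD, and the shoot ratio of 0.840 was 1.46 without C shoot 1.

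Other hormone genes were single members. TIR1 (VIT_14s0030g01240), an F-box receptor of auxin, was at 66.6, 49.2 and 63.7 CPM in WD root and 31.5, 28.7 and 23.5 CPM in C root. Its ratio was 2.15 in root and 1.06 in shoot, where the 6 libraries lay between 80.9 and 108 CPM, and it was the 1 rise under the shoot limit among 37 listed auxin genes, 5 of which met the root limits upward. A gene of the APETALA2 class (VIT_07s0031g00220), counted with 33 ethylene genes because AP2 and ethylene response factors share a DNA-binding domain, was at 51.3, 65.7 and 66.4 CPM in WD root and 35.0, 36.6 and 25.0 CPM in C root. Its shoot libraries held 52.9 to 73.6 CPM. The gibberellin list, made from a pathway and the word gibberellin, held no member. It did not include the gene annotated as an ent-kaurenoic acid oxidase, an enzyme name of gibberellin synthesis.

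Nitrogen and sugar metabolism gave 1 rise each. Nitrite reductase (VIT_03s0063g00370), the plastid enzyme that turns nitrite into ammonium, was at 117, 51.5 and 86.1 CPM in WD root and 37.3, 39.3 and 15.5 CPM in C root, a ratio of 2.76. In shoot it was at 122 CPM in C shoot 1 and at 26.6 to 75.1 CPM in the other 5 libraries, and the shoot ratio of 0.875 became 1.87 without C shoot 1. A trehalose-6-phosphate phosphatase of the TPPJ type (VIT_00s0304g00080), which makes trehalose from a sugar-signalling phosphate, was at 81.9, 120.0 and 143 CPM in WD root and 49.7, 64.7 and 50.5 CPM in C root. It was the 1 member among 17 listed carbohydrate genes that met the root limits upward, the other 16 being past the shoot limit upward.

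Of 356 listed transcription factor genes, 72 met the root limits upward and 7 of them (9.72%) stayed under the shoot limit. The 18% of all root rises counts unnamed genes too, which no list can hold. Among root rises with a named function, transcription factors were 7 of 32 members (21.9%) and 65 of 309 past the shoot limit (21%). As for transport, these shares are not like for like. COL3 (VIT_11s0052g01800), a constans-like zinc finger protein of light and flowering responses, was at 53.9, 65.0 and 94.7 CPM in WD root and 32.3, 35.6 and 20.3 CPM in C root. HAT9 (VIT_00s0732g00010), a homeodomain-leucine zipper protein, was at 38.3, 58.6 and 65.7 CPM in WD root and 30.1, 33.0 and 13.1 CPM in C root. For both genes C root 3 was the lowest library and WD root 3 the highest. The others were the AP2 gene above, BT3 (VIT_05s0094g00950) with BTB and TAZ domains at 39.5 to 44.0 CPM in WD root and 14.7 to 27.9 CPM in C root, APRR2, OBP4 (VIT_17s0000g04850) of the DOF class and a C2H2 zinc finger gene (VIT_18s0001g10130). APRR2 (VIT_02s0012g00570), a pseudo-response regulator, was at 13.6, 2.60 and 4.47 CPM in WD root and 2.07 to 2.39 CPM in C root. Its ratio of 3.14 rested on WD root 1 and was 1.62 without it, and its shoot libraries held 198 to 245 CPM. OBP4 and the C2H2 gene, named to complete the 7, had root ratios of 2.32 and 2.48.

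PsbO (VIT_00s0207g00210, on the unplaced chromosome Un, 12517438 to 12519783), a subunit of the water-splitting complex of photosystem II, was at 22.8, 22.4 and 63.7 CPM in WD root and 9.96, 2.81 and 2.20 CPM in C root. Its ratio of 7.27 was 4.53 without WD root 3 and 14.5 without C root 1. Every shoot library held 1814 to 3373 CPM, so a root level of this size was small beside that of green tissue. It was the 1 member among 21 listed photosynthesis genes at the C level limit, 7 of which met the root limits upward and 0 downward. The summed CPM of the 26 genes of the green tissue list was 222, 244 and 401 in WD root and 167, 178 and 145 in C root, and 199, 221 and 337 against 157, 175 and 143 without PsbO. The list, taken from the annotation, is not purely of green tissue. It holds a NADPH-cytochrome P450 oxidoreductase (VIT_18s0001g07630) at 52.4 to 72.8 CPM over the root libraries and a plastocyanin domain gene (VIT_09s0018g00520) at 28.2 to 44.7 CPM in C root and under 8 CPM in WD shoot. The 13 genes of the list named as photosystem proteins other than PsbO, set apart after their values were seen, summed to 9.25 to 16.02 CPM over C root, to 40.6, 42.7 and 82.4 CPM over WD root 1 to 3 and to 3458 to 8955 CPM over the shoot libraries. In 5 of these 13 genes WD root lay entirely above C root. Other listed genes with high shoot levels did not follow. LHB1B1 (VIT_12s0028g00320) was at 37.9, 5.42 and 0.351 CPM in WD root 1 to 3 and 0.106, 1.36 and 2.83 CPM in C root. PETH (VIT_04s0023g03510) was at 0 to 0.265 CPM over the root libraries and 334 to 1134 CPM over the shoot libraries. The lowest WD root value exceeded the highest C root value in 8 of the 25 listed genes other than PsbO, against 7.68% of the 16464 genes, and the reverse held in 0, against 6.76%. These shares are not like for like. The list came from tables of genes the study called differentially expressed, and it was not held to the C level limit. VIT_19s0014g03850 counted among the 8 at only 0.06 to 0.14 CPM in WD root. The part of green tissue or plastid content of the root samples in the change of PsbO was not tested.

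The remaining rises with a large ratio had other or no names. A calmodulin-like gene (VIT_18s0122g00180), of a family of calcium sensors, was at 25.4, 34.4 and 54.6 CPM in WD root and 16.5, 17.1 and 5.16 CPM in C root. A gene of the Bet v I class (VIT_01s0011g05180), a family of small ligand-binding proteins that includes birch pollen allergens, was at 8.35, 13.7 and 26.0 CPM in WD root and 4.15 to 6.09 CPM in C root, with 111 to 328 CPM in shoot. A lipase-related gene (VIT_11s0016g03360) was the 1 rise among the lipid genes, at 3.41, 5.09 and 7.32 CPM in WD root and 0.944 to 2.01 CPM in C root. In these 3 genes WD root 3 was the highest root library and C root 3 the lowest. COP1 (VIT_10s0523g00030), a light-signalling ubiquitin ligase named here after its values were seen, was at 5.03 to 10.9 CPM in WD root, 2.07 to 3.08 CPM in C root and 59.1 to 99.3 CPM in shoot.

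Of 3 genes listed as unknown, VIT_07s0005g01320 was at 10.2, 21.7 and 54.2 CPM in WD root and 8.58, 8.57 and 1.76 CPM in C root, and its ratio of 4.55 was 2.53 without WD root 3. VIT_18s0001g09290 was at 48.2, 97.8 and 124 CPM in WD root and 26.4, 37.7 and 18.6 CPM in C root, and VIT_19s0090g01120 had a root ratio of 3.79. The rises with the most reads had no name. VIT_09s0002g06760 was at 935, 1009.8 and 890.2 CPM in WD root and 573, 528 and 569.6 CPM in C root. Its ratio of 1.70 was one of the most even, staying between 1.64 and 1.75 when any root library was left out. VIT_03s0038g00760 was at 697, 783 and 927 CPM in WD root and 428, 489 and 420.3 CPM in C root, a ratio of 1.80.

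Of all root falls, named or not, 6.97% were members. The 21 transport, 14 cell wall, 11 lignin and 6 flavonoid genes among the root falls included 0, but only 9 of the 28 members had a name. The listed falls were 2 defence genes, 2 transcription factor genes, 1 cytokinin gene and 1 lipid gene, with JAZ3 in 2 of these lists. RBOHD (VIT_19s0014g02830, chromosome 19, 2924615 to 2929554), listed as a gp91-phox gene, encodes a respiratory burst oxidase that makes superoxide outside the cell. It was at 18.3, 24.1 and 26.7 CPM in WD root and 39.6, 68.1 and 67.7 CPM in C root, 2.54-fold lower in WD, and at 32.9 to 65.2 CPM over the shoot libraries with no order by treatment. A JAZ3 gene (VIT_17s0000g02230, chromosome 17, 1857316 to 1861423), a repressor of jasmonate responses, was at 32.6, 34.4 and 29.5 CPM in WD root and 61.0, 58.5 and 64.8 CPM in C root. The libraries within each root group were close together, and the 1.91-fold difference stayed between 1.84 and 1.98-fold when any root library was left out. In shoot JAZ3 was at 62.6, 60.4 and 56.6 CPM under WD and 66.5, 62.6 and 88.6 CPM in C, so that the highest WD and the lowest C library were level.

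A cis-zeatin O-glucosyltransferase gene (VIT_13s0019g02940), whose enzyme stores a cytokinin as its glucoside, was at 6.54, 12.6 and 4.52 CPM in WD root and 13.3, 22.8 and 20.3 CPM in C root, 2.39-fold lower in WD. WD root 2 and C root 1 were close. It was the 1 member among 11 listed cytokinin genes, 2 of which met the root limits downward. MYB4 (VIT_14s0006g01620), of a class of MYB proteins that repress phenylpropanoid genes in Arabidopsis, was at 10.6, 10.4 and 6.97 CPM in WD root and 15.4, 15.1 and 22.5 CPM in C root. An acyl-activating enzyme gene (VIT_05s0077g01270) was at 32.1, 34.6 and 33.2 CPM in WD root and 55.6, 77.9 and 43.4 CPM in C root, and at 2.70 to 4.31 CPM in shoot. This gene was mostly read in root, and its WD libraries were nearly equal while the C libraries spread.

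An exostosin family gene (VIT_18s0122g01400), of a family of glycosyltransferases, was at 21.1, 23.3 and 13.6 CPM in WD root and 40.6, 39.9 and 43.9 CPM in C root. An ankyrin repeat gene (VIT_19s0135g00300) was at 6.82, 7.47 and 6.93 CPM in WD root and 13.2, 12.1 and 13.5 CPM in C root, with 33.6 to 46.8 CPM in shoot. Both genes had C libraries within a narrow range, and the ratio of the ankyrin gene stayed between 1.79 and 1.89-fold when any root library was left out. The CYP97B gene (VIT_04s0023g00080), of a cytochrome P450 family with carotenoid hydroxylases, was at 50.6, 62.5 and 48.0 CPM in WD root and 98.1, 120.3 and 62.6 CPM in C root, where WD root 2 and C root 3 were almost equal. A nodulin family gene (VIT_06s0061g00590) was 1.71-fold lower and the unnamed VIT_04s0008g00180 was 2.02-fold lower in WD root. The falls with the most reads, VIT_10s0003g01360 at 312 to 493 CPM in WD root and 511 to 732 CPM in C root and VIT_04s0008g02460 at 271 to 526 CPM and 552 to 645 CPM, had no name. The fall with the largest ratio, VIT_14s0068g00150 at 4.92-fold, held under 3 CPM in every root library and 0 reads in WD root 3, and its ratio was 3.28 without WD root 3 and 8.50 without WD root 2.

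In most members WD root 3 was the most extreme of the WD root libraries. WD root 3 was the highest WD library in 85 of the 125 rises (68%), against 507 of all 694 genes past the upward root limits (73.1%). C root 3 was the lowest C library in 87 of the 125 rises (69.6%), against 507 of the 694 (73.1%). WD root 3 was the lowest WD library in 18 of the 28 falls (64.3%), against 298 of all 402 genes past the downward root limits (74.1%). The members did not exceed the genes past the root limits in any of these shares. The median log2 ratio of the rises to the C mean was 0.59 in WD root 1, 0.77 in WD root 2 and 1.07 in WD root 3, and -0.25 in C root 3 against 0.09 and 0.11 in the other C libraries. For the falls it was -0.76, -0.75 and -1.01 in WD root 1 to 3. In the shoot libraries, WD and C alike, the medians lay between -0.09 and 0.09 for rises and between -0.19 and 0.05 for falls. Marker lists of other cells moved with the same libraries. The summed CPM of the 8 histone genes, markers of dividing cells, was 73.9 in WD root 3, 132 to 176 in the other WD root libraries and 170 to 278 in C root. That of 17 genes of lignified or suberised cells was 596 in WD root 3, 752 to 881 in the other WD root libraries and 1007 to 1542 in C root. Gene by gene, WD root lay entirely below C root in 2 of the 8 histone genes and entirely above in 0. In the list of lignified or suberised cells 3 of 17 genes lay entirely below and 2 entirely above. Over the 16464 genes 6.76% lay entirely below and 7.68% entirely above. Both lists came from the study's tables of genes it called, so these shares are not like for like. The part of the cell makeup of the root samples in these changes was not tested, and in bulk tissue fewer cells of a type and less RNA per cell cannot be told apart.

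**Figure D3:**
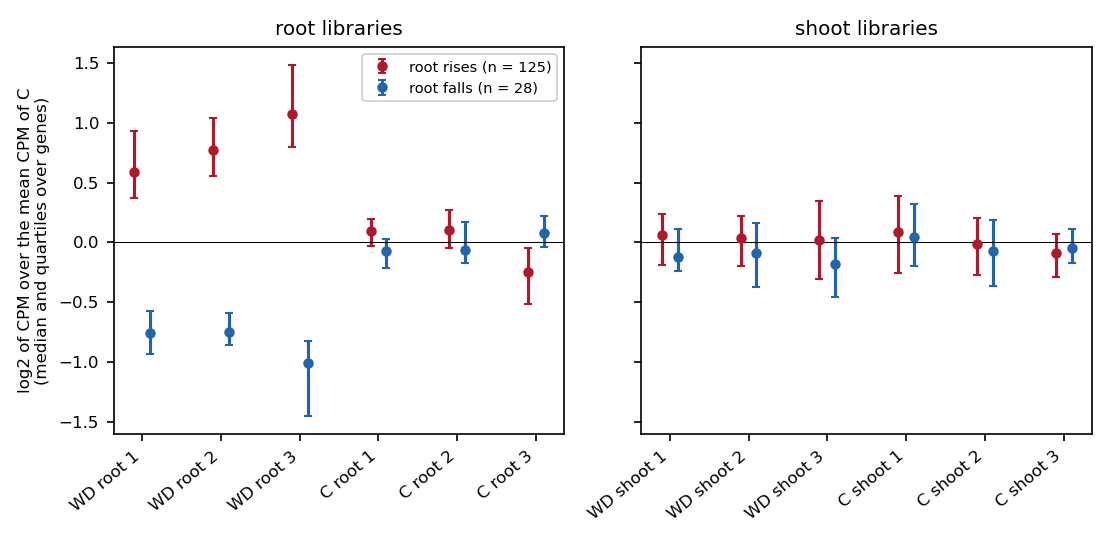
Median (point) and quartiles (bar) over the 125 rises (red) and 28 falls (blue) of log2 CPM relative to the C mean of the same organ, in each library. Root libraries separate by treatment because the genes were chosen so, with WD root 3 at 1.07 and -1.01, and the shoot medians stay near 0.

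A small change of the mean in shoot did not mean that shoot libraries were alike. The highest of the 6 shoot libraries exceeded the lowest by 2-fold or more in 53 of the 125 rises (42.4%) and 10 of the 28 falls (35.7%), against 1047 of all 5695 genes under the shoot limit (18.4%). The WD mean in shoot was above the C mean in 79 of the 125 rises (63.2%) and in 7 of the 28 falls (25%). No such share was counted over all genes under the shoot limit, so these counts cannot be judged. They also depend on the scaling, since the median log2 shoot change of all 16464 genes was -0.13 on total counts and -0.03 with TMM. The 95% interval of the shoot change from edgeR lay within 1.5-fold either way in 14 rises (11.2%) and 5 falls (17.9%), against 1890 of the 5695 genes under the shoot limit (33.2%). In 58 of the 125 rises (46.4%) and 11 of the 28 falls (39.3%) this interval held the gene's own root ratio, so for those genes the shoot libraries do not set the shoot change apart from the root change. The root ratio was taken as a fixed value on total counts, without its own spread, while the interval was on TMM sizes. The remaining members are therefore not shown to differ between organs, which was not tested. Examples with a narrow shoot interval on the log2 scale were TIR1 (-0.16 to 0.52), APRR2 (-0.44 to 0.40), INT2 (-0.24 to 0.57), the ankyrin gene (-0.26 to 0.42) and the AP2 gene (-0.47 to 0.49). The interval was wide for nitrite reductase (-1.78 to 1.48), the CYP707A gene (-1.83 to 1.42), the calmodulin-like gene (-1.02 to 1.77) and the NCED gene (-1.52 to 1.31).

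**Figure D4:**
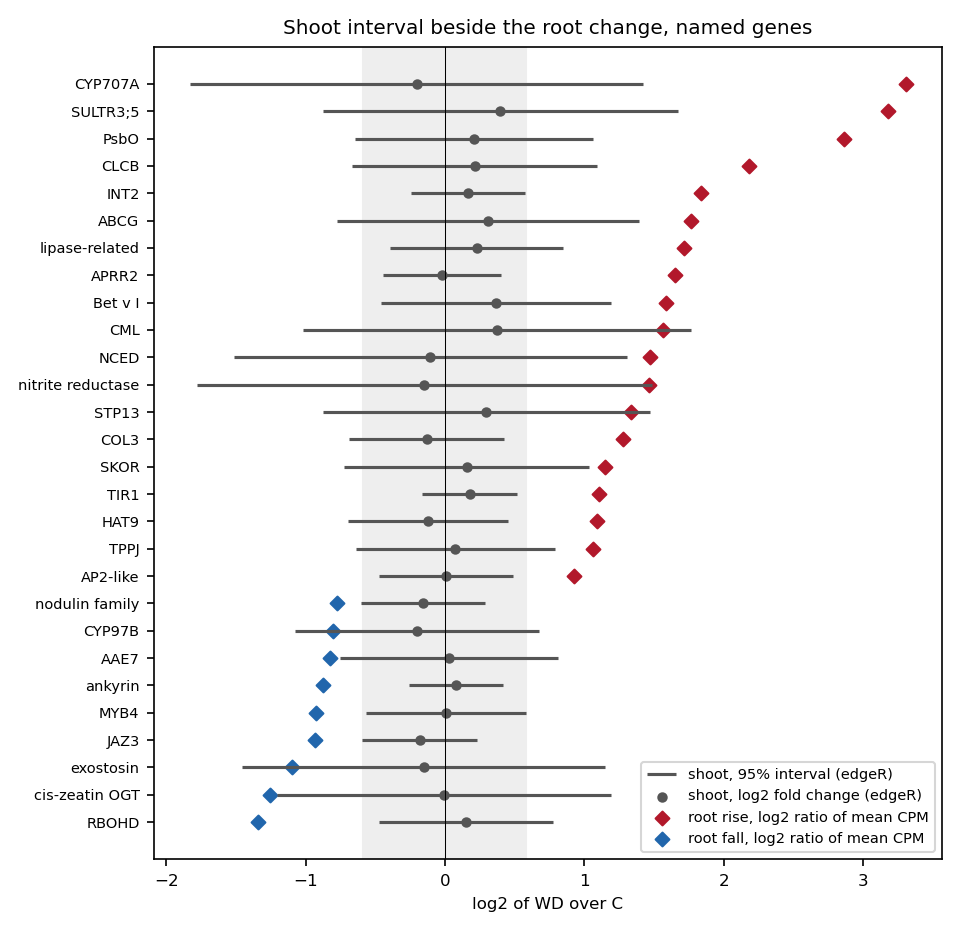
Shoot change of WD over C from edgeR with its 95% interval (grey) and root ratio of mean CPM (diamonds, red for rises and blue for falls), both on a log2 axis, for 28 named genes. Grey shading marks 1.5-fold either way, and the shoot interval reaches the root diamond for genes such as nitrite reductase, the calmodulin-like gene and STP13.

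Shoot libraries of WD and C did not overlap in 5 rises and 2 falls, against 422 of the 5695 genes under the shoot limit (7.41%). In 4 of the 5 rises WD shoot was higher, at shoot ratios of 1.07 to 1.17, and these were VIT_04s0008g01960, VIT_01s0011g06300, VIT_16s0013g01400 and VIT_07s0031g01600, named because the count is small. The nodulin family gene was lower under WD in both organs. The other rise and the other fall moved against their root direction and are given in the closing section.

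Levels in root and shoot were set side by side in the C libraries, of which the C root libraries also entered the choice of members. The choice favours low C root values among rises and high ones among falls, so the counts that follow are a description. In these libraries edgeR's quasi-likelihood test called 69 of the 125 rises lower in root than in shoot and 13 higher, while over the 16464 genes 4465 (27.1%) were called lower and 3896 (23.7%) higher in root. The other 569 root rises, which were past the shoot limit, had 295 (51.8%) called lower and 77 (13.5%) higher, so the balance was much the same for root rises in general. For the 28 falls 5 were called lower and 11 higher in root, and for the other 374 root falls 72 and 158. The median log2 ratio of root to shoot among the rises was -1.02 in C libraries and -0.11 in WD libraries, against 0.10 and 0.31 over all 16464 genes. Among the falls it was 0.28 in C libraries and -0.51 in WD libraries. The direction of the shift from C to WD in both sets was fixed by the limits that chose the genes.

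**Figure D5:**
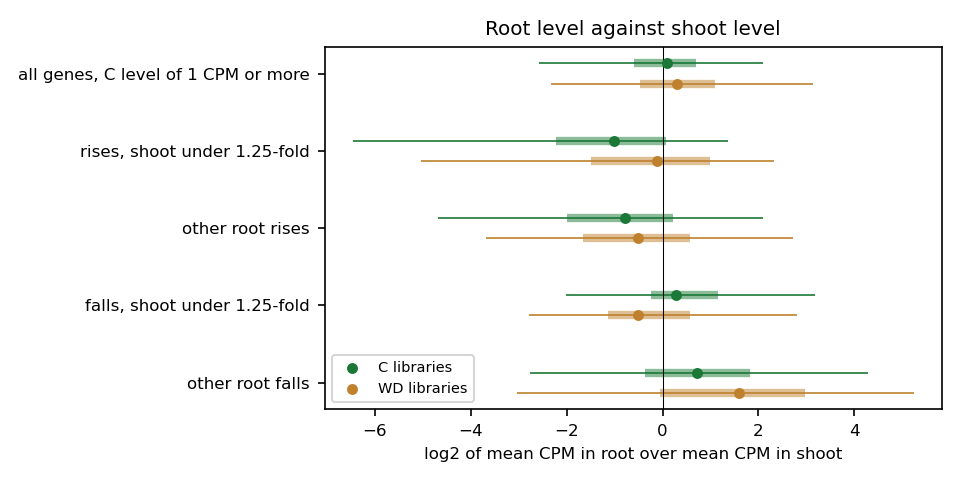
Log2 of mean CPM in root over mean CPM in shoot, in C (green) and WD (brown) libraries, for all genes at the C level limit and for the root rises and falls under and past the shoot limit. Points are medians, thick bars quartiles and thin lines the 5th to 95th percentiles over genes, and the rises have C medians below 0.

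Members were scattered over the genome. In 7 pairs of members 4 or fewer gene models lay between, and in 5 of these both genes had the same direction. In the 1 pair of direct neighbours, VIT_08s0007g01310 (chromosome 8, 15401129 to 15401951) and the NPF transporter VIT_08s0007g01320 (15402031 to 15404503) lay 79 bases apart with root ratios of 2.12 and 2.52, so reads of 1 transcript spanning both models cannot be told apart from reads of 2 genes. The locus of the rises had a median length of 3209 bases, against 4338.5 bases over the 16464 genes, and that of the falls 4090 bases. As a measure of the reads behind these values, the median CPM over root libraries was 11.0 for rises and 15.9 for falls, against 22.7 for all genes at the C level limit, and 58 of the 125 rises (46.4%) were under 10 CPM.

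Few members met the limits in every subset of the libraries. Leaving out each of the 12 libraries in turn, 21 of the 125 rises (16.8%) and 5 of the 28 falls (17.9%) were selected each time. Among named genes these were INT2, TIR1, TPPJ, APRR2, the AP2 gene, BT3, OBP4, the C2H2 gene, the lipase-related gene, VIT_18s0001g09290 and VIT_09s0002g06760 among rises, and RBOHD, MYB4 and the ankyrin gene among falls. The root limits held through all 6 root omissions in 71 rises and 17 falls, and the shoot limit through all 6 shoot omissions in 48 rises and 10 falls. Without WD root 3, 91 rises and 22 falls were still selected. Without C shoot 1, the library that set the shoot mean of the NCED, CYP707A and nitrite reductase genes, 90 rises and 20 falls were.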

How the data were processed

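Single-end reads of 100 bp were trimmed and mapped by the authors (TopHat2 2.0.8, Bowtie2 2.1.0), who deposited raw counts per gene model from htseq-count and RPKM values per library from Cufflinks. Lines of the count tables that name no gene were dropped (69.1 to 76.5% of each total was on genes). The deposited Cuffdiff comparisons of WD with C hold the authors' own tests and were not used.

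CPM was computed from the counts on genes. The WD and C contrasts in each organ and C root against C shoot were fitted across all genes with edgeR 4.0.16 (filterByExpr, TMM, robust dispersions, quasi-likelihood test) in R 4.3.3, with Benjamini-Hochberg adjustment at 0.05. Intervals of 95% came from the same fits. Alternatives were DESeq2 1.42.0, limma 3.58.1 on deposited RPKM as log2 with a pseudocount of 1 or 0.1 (organ contrast only), other scalings, filters and limits, and each library left out. The code was tested on simulated data. No library was a copy of another, since pairs within a group gave a chi-square of 22.5 to 163 times its degrees of freedom.

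The members, lists and named genes were chosen with earlier results of these data known. Named genes are the 10 largest root ratios per direction at 10 CPM or more, members the paper or its tables of networks name, up to 4 members of each functional list and 2 of each direction by root CPM, and those nearest each limit. No sequence is shown, since the reference at hand could not be matched to these gene models.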

Additional observations from a re-analysis of the deposited data

Results flagged for a closer look

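In VIT_04s0043g00830 the organs moved in opposite directions without overlap of libraries. It was at 5.63, 9.29 and 8.29 CPM in WD root against 4.34, 5.34 and 5.60 CPM in C root, and at 4.68, 5.78 and 5.51 CPM in WD shoot against 6.56, 6.23 and 6.28 CPM in C shoot, a shoot ratio of 0.837. In the fall VIT_06s0004g04150, WD root held 23.2, 23.6 and 11.5 CPM against 27.7, 27.9 and 31.9 CPM in C root, while WD shoot held 6.92, 7.13 and 8.55 CPM against 5.62, 6.77 and 6.87 CPM in C shoot, a shoot ratio of 1.17. For both genes the difference between organs was not tested.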

How the results depend on the processing

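The number of genes selected depended on scaling and limits. Rises numbered 112 on TMM sizes, 102 on DESeq2 size factors and 109 on deposited RPKM, but only 87, 82 and 76 of these were among the 125, and falls numbered 52, 59 and 26, of which 23, 24 and 12 were among the 28. A 2-fold root limit left 43 rises and 7 falls, a 1.1-fold shoot limit 62 and 9, and a C level of 5 CPM 71 and 19. With 1 library left out there were 113 to 449 rises and 27 to 112 falls, with 449 rises and 112 falls without WD root 1, 220 rises without C root 2 and 77 falls without C root 3. Omission of a root library also loosens the root limit, since fewer libraries have to stay apart. Leaving out WD root 3 and C root 3 together, an alternative chosen after seeing the data, gave 132 rises and 143 falls, of which 65 and 17 were members. Requiring the shoot interval within 1.5-fold, also chosen later, left 14 and 5. On total counts the median shoot change of all genes at the C level limit was -0.13 on the log2 scale, against -0.03 with TMM, and in root 0.03 against 0.00.

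Members called higher in root than in shoot numbered 24 (17 to 25 with a C library left out) and those lower 74 (63 to 75), and no alternative moved either by over 1.5 times. With the replicate block they numbered 20 and 75, in root 0 genes were called under it and in shoot 3737. Correlations of deviations between libraries of the same replicate number were -0.54 to 0.23. Pairs of unlike number were not compared, so whether replicate numbers pair the samples was not settled. In root edgeR called 0 genes with every filter, scaling and omission, and DESeq2 called 428. In shoot 632 to 6115 genes were called with 1 library left out, with 632 without C shoot 3, 713 without WD shoot 2, 2465 without C shoot 2 and 2812 without WD shoot 3. Of 369 root ratios recomputed for 41 named genes, 2 moved by over 1 SD of the libraries (SULTR3;5 without WD root 3 and APRR2 without WD root 1) and 0 changed direction. Omission of a root library could not change a direction, because members were chosen for root groups that do not overlap. Of 369 shoot ratios 4 moved by over 1 SD, those of NCED and nitrite reductase without C shoot 1, of VIT_02s0025g04080 without WD shoot 3 and of the acyl-activating enzyme gene on RPKM. The causes were not tested.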
